A study of Mus musculus with 23 samples.

Results

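Cohesin is the ring-shaped complex that holds sister chromatids together, and its 9 subunit genes Rec8, Rad21l, Rad21, Smc1b, Smc1a, Smc3, Stag3, Stag1 and Stag2 were followed here across the testes of 7 mouse genotypes. They were found by gene symbol in the array's annotation, and all 9 were present among 19661 genes, on 10 probe sets, because Rad21l had 2. All 9 passed the filter on dim genes, which left 14746 genes to be tested. Values are the deposited log2 signals of Affymetrix Mouse Gene 1.0 ST arrays, so a difference of 1 is a doubling.

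RNA came from mice aged 14.5 days, whose testes had been freed of the tunica and processed to isolate the spermatogenic populations, with 4 testes pooled per array. The 23 arrays held 3 of the inbred strain PWD, which represents Mus musculus musculus, 3 of the inbred laboratory strain B6, 3 each of the reciprocal F1 hybrids PWDxB6 and B6xPWD, 2 of the F1 PWDxPWK, 6 of the F1 B6xBALB/C and 3 of the F1 BALB/CxB6. No group carried an engineered allele or a treatment in the labels. Crosses are written as in the labels; by the usual convention the mother comes first, so that PWDxB6 males would carry the PWD X chromosome and B6xPWD males the B6 one, although the labels do not state this. The submitters left out a further PWDxPWK array as an outlier. Each pool counted as 1 replicate, and since the labels do not say that pools came from separate litters, p-values measure the spread between pools. The labels state no purpose for each comparison; F1 males of PWDxB6 are known for a meiotic arrest and sterility that the reciprocal cross shows less strongly.

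A cohesin ring consists of an SMC heterodimer, a kleisin that closes it and a STAG protein bound to the kleisin. Germ cells add meiosis-specific versions of 3 of these positions: Smc1b beside Smc1a, Rec8 and Rad21l beside Rad21, and Stag3 beside Stag1 and Stag2, while Smc3 serves both kinds of ring. In spermatocytes these rings build the chromosome axes on which homologs pair and synapse, and Rec8 is protected at centromeres until sister chromatids part in the second division. Smc1a and Stag2 lie on the X chromosome, which is silenced in pachytene spermatocytes. The other members lie on autosomes: Rec8 on chromosome 14, Rad21l on 2, Rad21 and Smc1b on 15, Smc3 on 19, Stag3 on 5 and Stag1 on 9.

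The preparations carried germ cell RNA: the germ cell markers Ddx4, Dazl, Mael and Tdrd1 had mean log2 signals of 10.45, 11.36, 9.84 and 9.02. They also carried somatic RNA, since all 7 Sertoli markers measured passed the dim filter, with Clu at 12.79 and Amhr2 at 11.14. Of the 5 spermatid markers 3 were dim (Tnp1, Tnp2 and Acrv1). In bulk RNA, fewer cells of a type and less RNA per cell cannot be told apart. The mean of 10 markers of pachytene spermatocytes, relative to its mean over 23 arrays, lay between −0.85 and −0.58 in PWD, −0.83 and −0.53 in PWDxB6, −0.39 and −0.37 in PWDxPWK, and −0.31 and −0.24 in BALB/CxB6. It lay between −0.08 and 0.48 in B6xPWD, 0.25 and 0.72 in B6, and −0.69 and 1.15 in B6xBALB/C, where replicate 6 was at −0.69 and the other 5 arrays were at 0.48 or more. Differences fitted with this pachytene mean as a covariate are given below beside some of the member results, and not beside every result that it moved.

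The promoters of the 3 members whose level differed across genotypes are shown because that of Rad21l differs widely in base composition from those of Rec8 and Stag3. Each line gives the 250 bases before the transcription start, from RefSeq (GRCm38.p6), with matches to TCCCGC (the core of the E2F motif), CACGTG (an E-box) or CCAAT, on either strand, in capitals. Rec8 lies at chr14:55617916-55618165 on the plus strand, Rad21l at chr2:151668534-151668783 on the minus strand and Stag3 at chr5:138280259-138280508 on the plus strand.
Rec8: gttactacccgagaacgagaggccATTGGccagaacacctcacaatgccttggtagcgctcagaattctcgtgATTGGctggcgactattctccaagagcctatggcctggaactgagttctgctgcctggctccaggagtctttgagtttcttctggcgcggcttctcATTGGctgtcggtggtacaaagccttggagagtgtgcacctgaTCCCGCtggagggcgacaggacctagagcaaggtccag
Rad21l: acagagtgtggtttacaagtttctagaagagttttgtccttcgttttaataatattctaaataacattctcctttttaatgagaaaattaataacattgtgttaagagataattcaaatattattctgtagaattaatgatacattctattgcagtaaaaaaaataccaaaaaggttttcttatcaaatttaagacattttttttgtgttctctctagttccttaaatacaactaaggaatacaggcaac
Stag3: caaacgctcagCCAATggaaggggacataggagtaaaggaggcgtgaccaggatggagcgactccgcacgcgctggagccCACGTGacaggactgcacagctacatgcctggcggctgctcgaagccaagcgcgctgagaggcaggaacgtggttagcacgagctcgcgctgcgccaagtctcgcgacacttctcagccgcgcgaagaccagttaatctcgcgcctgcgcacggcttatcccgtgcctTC
In the window of 300 bases that runs 50 bases past the start, Rad21l had 2 CpG dinucleotides and a GC content of 29.0%, against medians of 7 and 52.7% over 32851 promoters. Rec8 had 18 CpG and 58.3% GC, and Stag3 had 30 CpG and 61.3% GC. Rec8 held TCCCGC at 38 to 33 bases before its start and ATTGG, the reverse complement of CCAAT, at 3 places. In Stag3 a TCCCGC ran across the start, so that the sequence above shows only its first letters as capitals at the end, and a CACGTG lay 170 to 165 bases before the start. Rad21l held neither TCCCGC nor CACGTG in its window, and a single ATTGG after the start. Over all promoters 20.0% held TCCCGC, 7.2% CACGTG and 37.4% CCAAT, and the matches are descriptions of these letters. Of the other 4 members with an entry, Smc1b, Smc1a, Smc3 and Stag1 each held TCCCGC within the window.

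Across the 7 genotypes, Rec8, Rad21l and Stag3, all meiosis-specific, differed by limma's moderated F test adjusted over all genes tested. The other 6 members, among them the meiosis-specific Smc1b, did not pass. Thus 3 of 9 members passed, beside 33.8% of all genes tested, so that the count is near the background. The group means of Rec8 spanned 0.87 (1.83-fold, adjusted p = 0.000193), those of Rad21l 0.70 (1.62-fold, adjusted p = 0.00470) and those of Stag3 0.51 (1.42-fold, adjusted p = 0.0446). The spans of the members that did not pass were 0.45 for Stag2 (adjusted p = 0.0816), 0.40 for Smc1a (0.0678), 0.30 for Smc3 (0.166), 0.25 for Smc1b (0.455), 0.22 for Stag1 (0.374) and 0.22 for Rad21 (0.329). The median span was 0.60 over the 4 meiosis-specific subunits, 0.31 over their 4 mitotic counterparts (Rad21, Smc1a, Stag1 and Stag2) and 0.39 over all genes. The call of Stag3 was lost in 17 of 35 alternative settings, with an adjusted p of 0.452 when the pachytene mean was a covariate. Rec8 passed in 34 of the 35 and Rad21l in all 35; without the 6 arrays of B6xBALB/C, Rec8 had a span of 0.49 and an adjusted p of 0.0606.

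**Figure D1:**
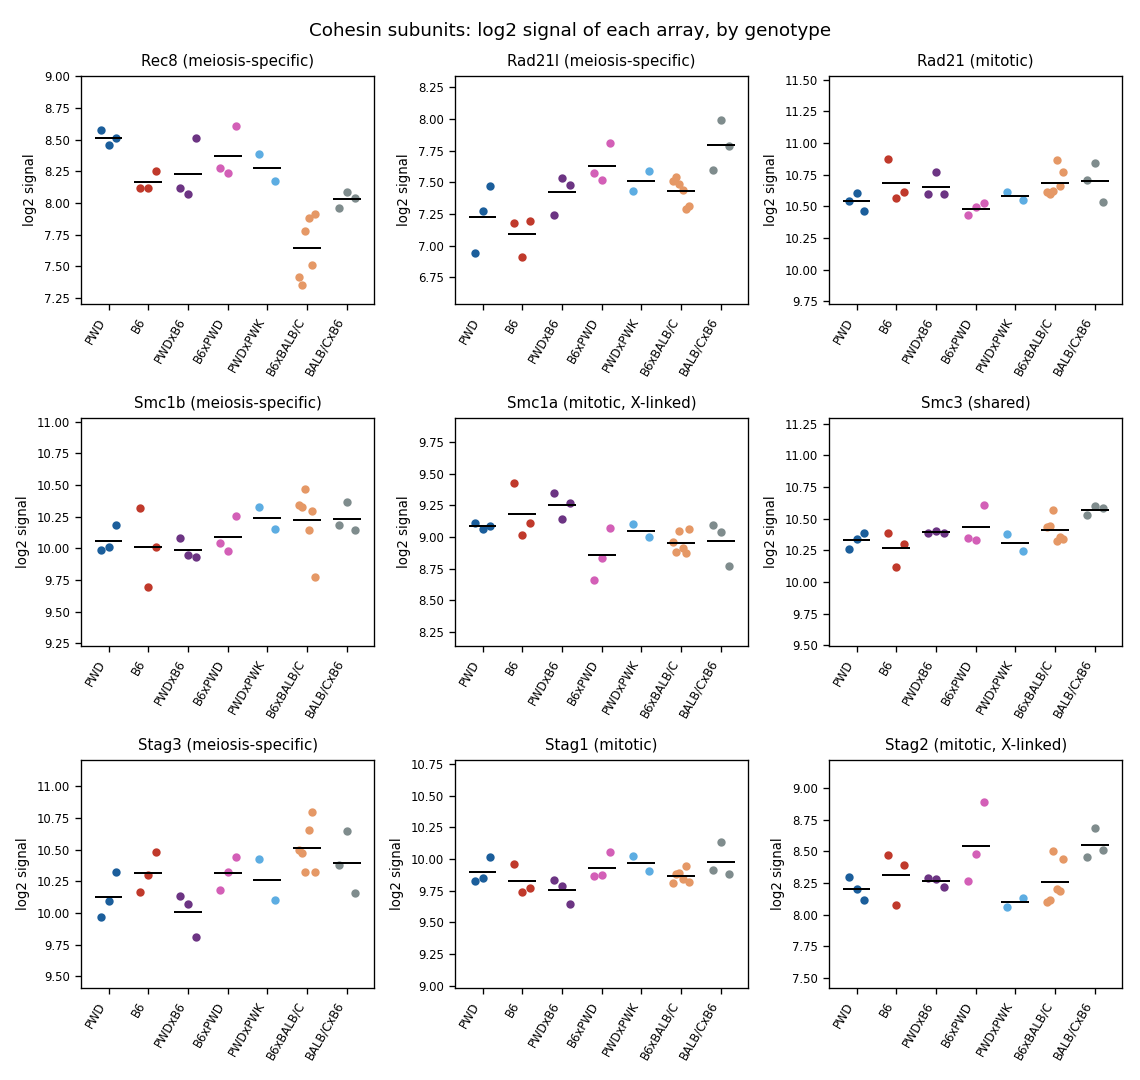
Log2 signal of each cohesin subunit on each of the 23 arrays (points) with the genotype mean (black line); every panel spans the same range of log2 units around that gene's own mean, and levels are not comparable between panels. The 6 arrays of B6xBALB/C sit below all others for Rec8, at 7.35 to 7.91, whereas Rad21 and Stag1 stay within 0.22 between genotype means.

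Rec8, the kleisin that keeps sister chromatids together through the first meiotic division, was highest in PWD and lowest in B6xBALB/C. Its log2 signal was 8.57, 8.46 and 8.51 in PWD, 8.28, 8.23 and 8.61 in B6xPWD, and 8.39 and 8.17 in PWDxPWK. It was 8.11, 8.07 and 8.51 in PWDxB6, 8.12, 8.12 and 8.25 in B6, and 7.96, 8.09 and 8.04 in BALB/CxB6. In B6xBALB/C the lowest array read 7.35, the median was 7.65 and the highest read 7.91. In the order of the means, PWD, B6xPWD, PWDxPWK, PWDxB6, B6, BALB/CxB6 and B6xBALB/C, the arrays of neighbouring genotypes overlapped up to B6, and then B6 lay wholly above BALB/CxB6 and BALB/CxB6 wholly above B6xBALB/C. Of the genotypes above it, BALB/CxB6 overlapped PWDxB6 alone, and B6xBALB/C overlapped none.

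Between the reciprocal laboratory crosses, Rec8 was lower in B6xBALB/C than in BALB/CxB6 by 0.39 (SE 0.125, 1.31-fold), on every array, but this did not pass over all genes (adjusted p = 0.125). No member passed in this comparison, beside 0.441% of all genes by limma; 3 members had an unadjusted p under 0.05, as did 2095 genes. The arrays did not overlap for 2 of the 9 members, Rec8 and Rad21l, and for 3.91% of all genes. Without B6xBALB/C replicate 6 the Rec8 difference was −0.44 (adjusted p = 0.0281). With only replicates 1 to 3 of that cross it was −0.51 (adjusted p = 0.0135). In these settings 6.86% and 8.65% of all genes passed, so that calls rose in number over the whole table. With only replicates 4 to 6 of that cross Rec8 did not pass, and 0% of all genes did. The 6 B6xBALB/C arrays also differed in the pachytene mean: replicates 2, 1, 5, 3, 4 and 6, in the order of rising Rec8 signal, had pachytene means of 1.15, 1.08, 1.13, 0.87, 0.48 and −0.69. With the pachytene mean as a covariate the Rec8 difference was −0.12 (SE 0.132, adjusted p = 0.831), and 0% of all genes passed.

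PWD also lay wholly above B6 for Rec8, by 0.35 (SE 0.145, 1.28-fold), and this did not pass either (adjusted p = 0.0946). No member passed between the parental strains, beside 18.4% of all genes, and 1 member, Rec8, had an unadjusted p under 0.05, as did 4578 genes. The arrays did not overlap for 1 of 9 members, and for 38% of all genes. With the pachytene mean as a covariate this Rec8 difference was 0.02 (SE 0.157). Between the reciprocal hybrids the Rec8 arrays overlapped, with a difference of −0.14 (SE 0.145, adjusted p = 0.595), or −0.39 (SE 0.142, adjusted p = 0.205) with the pachytene covariate.

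**Figure D2:**
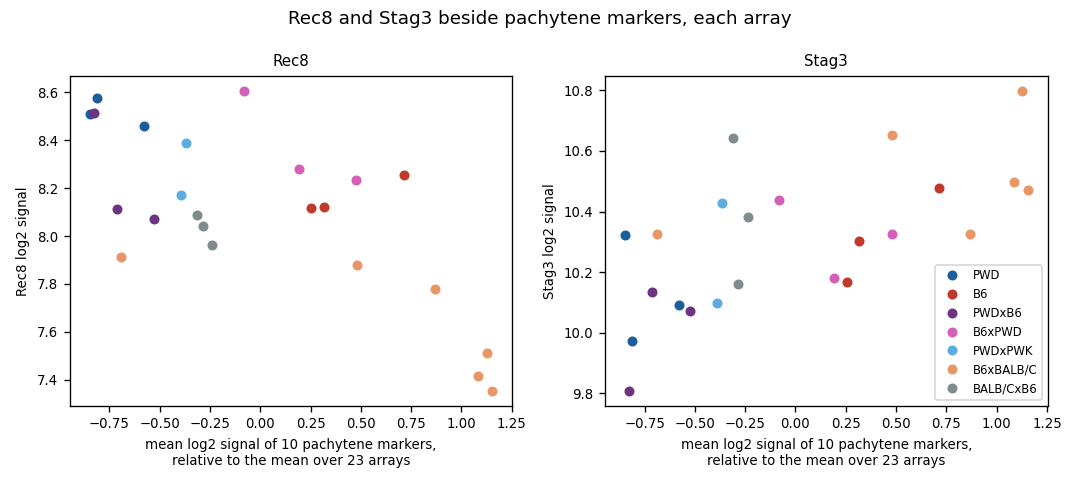
Log2 signal of Rec8 (left) and Stag3 (right) on each of 23 arrays against the mean of 10 pachytene markers on the same array, relative to its mean over all arrays. The 3 arrays with the lowest Rec8 signal, all B6xBALB/C, have pachytene means of 1.08 to 1.15, and the array with the lowest Stag3 signal, PWDxB6 replicate 3 at 9.81, has a pachytene mean of −0.83.

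Rad21l, the kleisin that acts early in meiotic prophase when homologs pair, was the only member to pass in a comparison of the inter-subspecific hybrids with the parental strains. It rose in B6xPWD over the mean of PWD and B6. Its log2 signal was 7.57, 7.52 and 7.81 in B6xPWD, 6.94, 7.27 and 7.47 in PWD, and 7.18, 6.91 and 7.19 in B6. All 3 hybrid arrays lay above all 6 parental ones. The difference from the mid-parent value, the mean of both strains' means, was 0.47 (SE 0.115, 1.39-fold, adjusted p = 0.0116), and 1 of 9 members passed beside 14.5% of all genes (7.79% higher). The arrays of B6xPWD did not overlap the parental ones for 1 of 9 members and for 14.3% of all genes. The difference from B6 alone was 0.54 (SE 0.132, 1.45-fold, adjusted p = 0.00865), where 1 of 9 members passed beside 17% of all genes (9.7% higher), and where the arrays did not overlap for 2 of 9 members, Rad21l and Rad21, and for 31.9% of all genes. Without B6xPWD replicate 3 the mid-parent difference was 0.39 and no longer passed (adjusted p = 0.0576), and without B6 replicate 2 the difference from B6 was 0.45 (adjusted p = 0.0509). With the pachytene mean as a covariate both stayed past the threshold, at 0.45 (adjusted p = 0.0197) and 0.55 (adjusted p = 0.00402).

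Markers of other cell types and of germ cells moved in the same comparison. Against the mid-parent value, B6xPWD was lower in 3 of 7 Sertoli, 4 of 7 peritubular and 4 of 5 endothelial markers, and in 1 of 3 Leydig markers. Over all genes 6.69% were lower and 7.79% higher in this comparison. No call was made among the 10 pachytene, 3 macrophage and 2 spermatid markers tested, and 1 of 8 spermatogonial markers was higher. Of the 10 pachytene markers, 8 had positive differences, with a median over the 10 of 0.29. The germ cell markers were higher in 1 of 4 by the test, and all 4 had positive differences, with a median of 0.40 beside −0.03 over all genes. As a mean per marker they read 10.27 to 10.38 in B6xPWD, 9.68 to 9.87 in PWD and 9.95 to 10.27 in B6. The summed level of the Sertoli markers, as a mean per marker, was 9.70 to 9.80 in B6xPWD, 9.88 to 10.09 in PWD and 10.05 to 10.18 in B6. The part of these somatic and germ cell markers in the rise of Rad21l was not tested.

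In PWDxB6 the Rad21l arrays read 7.25, 7.54 and 7.48, overlapping PWD and B6xPWD and lying above every B6 array, of which the highest read 7.19. The difference from the mid-parent value was 0.26 (SE 0.115, adjusted p = 0.366), and that from B6xPWD was −0.21 (SE 0.132, adjusted p = 0.360). No member passed between PWDxB6 and the mid-parent value, beside 0.671% of all genes, and 1 member had an unadjusted p under 0.05, as did 1764 genes. The rise in B6xPWD is therefore not shown to differ from PWDxB6. The highest Rad21l levels were in BALB/CxB6, at 7.60, 7.99 and 7.79, wholly above B6xBALB/C, whose lowest, median and highest arrays read 7.29, 7.46 and 7.54. That difference was −0.36 for B6xBALB/C against BALB/CxB6 (SE 0.115, 1.28-fold) and did not pass (adjusted p = 0.117). PWDxPWK read 7.43 and 7.59. In the order of means, BALB/CxB6, B6xPWD, PWDxPWK, B6xBALB/C, PWDxB6, PWD and B6, every genotype overlapped its neighbours.

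The second Rad21l probe set gave a different order. On it B6 was lowest, at 6.48, 5.89 and 6.77, and PWD read 7.13, 7.23 and 7.55. PWD was higher than B6 by 0.92 there (SE 0.197, 1.90-fold, adjusted p = 0.00202), against 0.13 (SE 0.132, adjusted p = 0.527) on the probe set with the higher mean. B6xPWD read 7.02, 7.08 and 7.64, higher than B6 by 0.87 (SE 0.197, adjusted p = 0.00531), but its difference from the mid-parent value was 0.41 (SE 0.170, adjusted p = 0.106) and its arrays overlapped the parental ones. PWDxB6, at 7.55, 7.51 and 7.50, lay on average above B6xPWD on this probe set and below it on the other. Its difference from the mid-parent value was 0.68 here (SE 0.170, 1.61-fold, unadjusted p = 0.000563), against 0.26 on the other, with overlapping arrays and an adjusted p of 0.0683 that did not pass. The hybrid with the larger Rad21l difference from the mid-parent value was thus B6xPWD on one probe set and PWDxB6 on the other. B6xBALB/C and BALB/CxB6 differed by 0.01 on it. Both probe sets thus put B6xPWD above B6, and they disagreed on PWD against B6, on the reciprocal hybrids and on the laboratory crosses. Differences in sequence between strains under the probes were not analysed here.

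**Figure D3:**
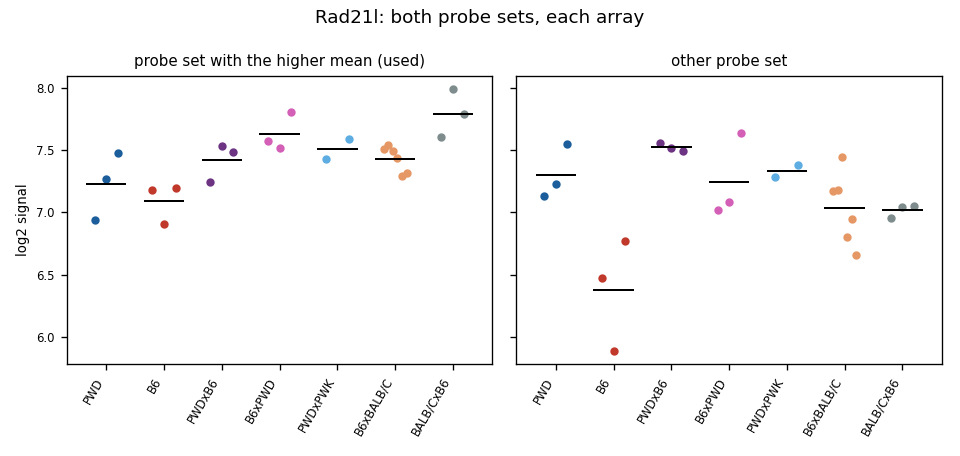
Log2 signal of the Rad21l probe sets on each of 23 arrays (points) with genotype means (black lines): left, the probe set with the higher mean, used in the tests; right, the other. B6 is the lowest genotype mean on both, at 7.09 and 6.38, and BALB/CxB6 is the highest on the left at 7.79 but only 7.02 on the right.

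Rad21, the kleisin of mitotic cohesin, varied little. Its genotype means lay between 10.48 in B6xPWD and 10.70 in BALB/CxB6, and the arrays of every genotype overlapped those of its neighbours in that order. The B6xPWD arrays, at 10.43, 10.49 and 10.53, lay wholly below PWDxB6, at 10.59, 10.77 and 10.59, and wholly below B6, at 10.87, 10.57 and 10.61. Neither difference passed: PWDxB6 was higher than B6xPWD by 0.17 (SE 0.103, adjusted p = 0.339), and B6xPWD was lower than B6 by 0.20 (SE 0.103, adjusted p = 0.180). PWD read 10.55, 10.61 and 10.46, which overlapped both hybrids.

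Among the SMC subunits, Smc1a had the largest difference between the reciprocal hybrids of any member. This X-linked partner of Smc3 in mitotic cohesin read 9.35, 9.14 and 9.27 in PWDxB6 and 8.66, 8.83 and 9.07 in B6xPWD, with no overlap. The difference was 0.40 (SE 0.116, 1.32-fold), and it did not pass over all genes (adjusted p = 0.0640). No member passed in this comparison, beside 2.83% of all genes by limma, and Smc1a and Stag3 had an unadjusted p under 0.05, as did 3112 genes. The arrays of the hybrids did not overlap for 4 of 9 members, Smc1a and Rad21 higher and Stag3 and Stag1 lower in PWDxB6, beside 24% of all genes (13.1% higher and 10.9% lower). The Smc1a difference passed with quantile normalization (0.44, adjusted p = 0.0407), with array weights (0.45, adjusted p = 0.000408) and without B6xPWD replicate 3 (0.51, adjusted p = 0.0321), where 2.69%, 31.4% and 2.5% of all genes passed. With the pachytene mean as a covariate it was 0.30 (SE 0.134, adjusted p = 0.314).

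For Smc1a the strain values overlapped. The strains read 9.11, 9.06 and 9.08 in PWD and 9.42, 9.02 and 9.11 in B6, a difference of −0.10 (SE 0.116, adjusted p = 0.606). The test of the reciprocal difference against the strain difference gave 0.50 for Smc1a (SE 0.165, adjusted p = 0.0609), and no member passed it beside 9.01% of all genes; 3 members and 3427 genes had an unadjusted p under 0.05. Set against the strain expected to share its X, PWDxB6 was higher than PWD by 0.17 on every array (SE 0.116, adjusted p = 0.607), and B6xPWD was lower than B6 by 0.33 with overlapping arrays (SE 0.116, adjusted p = 0.0557). No member passed between PWDxB6 and PWD, beside 2.31% of all genes; no member but 1954 genes had an unadjusted p under 0.05, and the arrays did not overlap for 1 of 9 members, Smc1a, and for 22.9% of all genes. Against B6, the Smc1a difference of B6xPWD passed in 7 of 18 alternative settings, between −0.33 and −0.44, where 10.3% to 28.9% of all genes passed. The reciprocal laboratory crosses gave a Smc1a difference of −0.01 (SE 0.101), with arrays of 8.87 to 9.07 in B6xBALB/C and 8.77 to 9.10 in BALB/CxB6. The difference between the pairs of reciprocal crosses was 0.41 (SE 0.154, adjusted p = 0.171), and no member passed that test beside 1.3% of all genes, with 2 members and 2461 genes at an unadjusted p under 0.05. In the order PWDxB6, B6, PWD, PWDxPWK, BALB/CxB6, B6xBALB/C and B6xPWD, neighbours overlapped at every step.

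Smc1b, the meiosis-specific counterpart of Smc1a, passed in no comparison of genotypes. Its genotype means lay between 9.99 in PWDxB6 and 10.24 in PWDxPWK, and its arrays spread widely within genotypes, from 9.70 to 10.32 in B6 and from 9.78 to 10.47 in B6xBALB/C. The lowest B6xBALB/C array was replicate 6, which also had the lowest pachytene mean of that cross. PWDxB6, at 10.08, 9.94 and 9.93, overlapped B6xPWD, at 10.04, 9.98 and 10.25, with a difference of −0.10 (SE 0.151, adjusted p = 0.715). With the pachytene covariate that difference turned to 0.10 (SE 0.159, adjusted p = 0.819).

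Smc3, the SMC protein common to mitotic and meiotic rings, had genotype means from 10.27 in B6 to 10.57 in BALB/CxB6. PWDxB6 read 10.39, 10.40 and 10.39, inside the range of B6xPWD at 10.35, 10.33 and 10.61. The difference was −0.04 (SE 0.0955, adjusted p = 0.843), which corresponds to 1.03-fold. The largest differences of Smc3 in a comparison of 2 genotypes were 0.16 (SE 0.0955, adjusted p = 0.255), for B6xPWD against B6, and −0.16 (SE 0.0827, adjusted p = 0.393), for B6xBALB/C against BALB/CxB6.

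Of the STAG subunits, Stag3, the meiosis-specific one, was lowest in PWDxB6 and highest in B6xBALB/C. It read 10.14, 10.07 and 9.81 in PWDxB6 and 10.18, 10.33 and 10.44 in B6xPWD, again without overlap. The difference of −0.31 (SE 0.145, 1.24-fold) did not pass (adjusted p = 0.221), although it did with array weights, at −0.36 (adjusted p = 0.0174), a setting in which 31.4% of all genes passed. PWD read 9.97, 10.09 and 10.32 and B6 10.17, 10.30 and 10.48, so that B6xPWD overlapped both strains while PWDxB6 overlapped PWD and lay below every B6 array. Its difference from the mid-parent value was −0.22 (SE 0.125, adjusted p = 0.510). In B6xBALB/C the lowest, median and highest arrays were 10.33, 10.48 and 10.80, and BALB/CxB6 read 10.38, 10.64 and 10.16. PWDxPWK read 10.43 and 10.10. The genotypes with low Stag3, PWDxB6 and PWD, were also those with the lowest pachytene means, and with that mean as a covariate the reciprocal difference was −0.20 (SE 0.166, adjusted p = 0.626).

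Stag1, the STAG protein of mitotic cohesin that is encoded on an autosome, lay between 9.76 in PWDxB6 and 9.98 in BALB/CxB6 on average. Its arrays in PWDxB6, at 9.84, 9.78 and 9.65, were all below those of B6xPWD, at 9.86, 9.88 and 10.06, a difference of −0.18 (SE 0.0955, adjusted p = 0.288). Stag2, its X-linked counterpart, read 8.29, 8.28 and 8.22 in PWDxB6 and 8.27, 8.48 and 8.89 in B6xPWD. The Stag2 arrays overlapped, and the difference was −0.28 (SE 0.138, adjusted p = 0.242), or −0.42 (SE 0.154, adjusted p = 0.210) with the pachytene covariate, opposite in sign to that of Smc1a, the other X-linked member. B6xPWD lay above the mid-parent value for Stag2 by 0.28 (SE 0.119, adjusted p = 0.107) and differed from it by −0.28 for Smc1a (SE 0.101, adjusted p = 0.0645). Without B6xPWD replicate 1 the Stag2 difference was 0.42 (adjusted p = 0.0427), and without B6xPWD replicate 3 the Smc1a difference was −0.39 (adjusted p = 0.0261). In the laboratory crosses Stag2 was 8.10, 8.19 and 8.50 at the lowest, median and highest B6xBALB/C array and 8.45, 8.68 and 8.51 in BALB/CxB6, a difference of −0.29 (SE 0.119, adjusted p = 0.252). Across the 7 genotypes Stag2 passed the F test with the pachytene covariate (adjusted p = 0.0407), as did 30.8% of all genes. PWDxPWK had the lowest Stag2 mean, with arrays at 8.07 and 8.14, against 8.30, 8.21 and 8.11 in PWD.

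PWDxPWK, an F1 of related strains, was compared with PWD. No member passed, beside 0.00678% of all genes tested (1 gene) by limma, and no member but 419 genes had an unadjusted p under 0.05. The arrays did not overlap for 1 of 9 members, Rec8, and for 21.5% of all genes. The largest differences were 0.28 for Rad21l (SE 0.148) and −0.24 for Rec8 (SE 0.162), the latter with both PWDxPWK arrays below all 3 PWD arrays. With 2 arrays in this group the errors are wider than in the others.

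**Figure D4:**
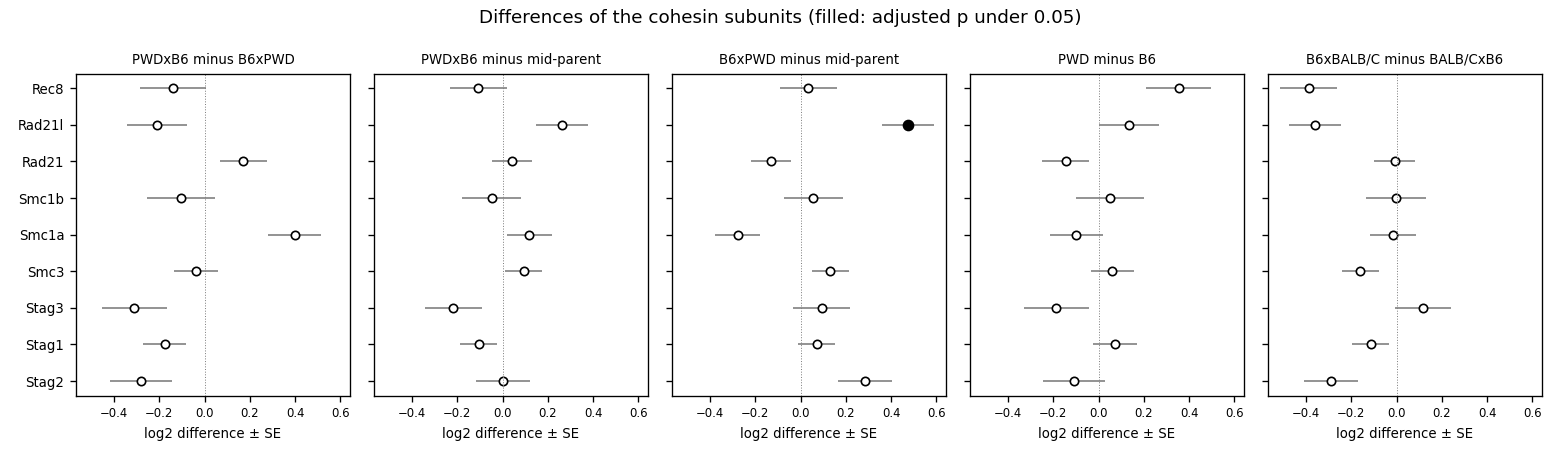
Log2 differences of the 9 cohesin subunits in 5 comparisons (points) with standard errors from the fit over 23 arrays (bars); filled points passed at an adjusted p under 0.05 over all genes tested. The only filled point is Rad21l in B6xPWD against the mid-parent value, at 0.47, and Smc1a at 0.40 is the farthest point from 0 between the reciprocal hybrids.

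Each meiosis-specific subunit was then set against its mitotic counterpart on the same array, as a difference of log2 signals centred on its mean over the 23 arrays. Levels of different probe sets cannot be compared, so only shifts of this log ratio between genotypes are described, and no test was made. The log ratio of Smc1b over Smc1a separated the reciprocal hybrids: it was −0.36, −0.29 and −0.43 in PWDxB6 and 0.09, 0.05 and 0.29 in B6xPWD. The B6xPWD values also lay above all arrays of PWD, at −0.22 to 0.01, and of B6, at −0.41 to −0.19. The mean shift between the hybrids was −0.50, made up of a difference of −0.10 in Smc1b and of 0.40 in Smc1a. With the pachytene mean as a covariate these differences were 0.10 for Smc1b and 0.30 for Smc1a, and the log ratio itself was not fitted with it. Among single genes, 24% had no overlap between the arrays of these hybrids, and no such share was computed for log ratios. In B6xBALB/C and BALB/CxB6 the Smc1b over Smc1a values overlapped, with medians of 0.31 and 0.23, and B6xBALB/C replicate 6 stood lowest at −0.38.

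The kleisins shifted as well. Rad21l over Rad21 was 0.22 to 0.47 in B6xPWD, above all arrays of PWDxB6 (−0.16 to 0.08), PWD (−0.42 to 0.20) and B6 (−0.51 to −0.23). The B6xPWD values overlapped those of BALB/CxB6 (0.08 to 0.44) and PWDxPWK (0.004 to 0.23), and lay above B6xBALB/C (−0.26 to 0.13). The mean shift was 0.74 for B6xPWD against B6 and −0.38 for PWDxB6 against B6xPWD. With the other Rad21l probe set, an alternative chosen after seeing the data, B6xPWD still lay above all B6 arrays, by 1.07 on average, but its values of 0.12 to 0.65 overlapped PWDxB6 (0.28 to 0.49) and PWD (0.11 to 0.62), and the shift for PWDxB6 against B6xPWD turned to 0.10. Rec8 over Rad21 was 0.38 to 0.57 in PWD, −0.23 to 0.17 in B6 and −0.72 to −0.31 in B6xBALB/C, and its values in the reciprocal hybrids overlapped, at −0.17 to 0.44 in PWDxB6 and 0.27 to 0.61 in B6xPWD. For Stag3 the shifts between the reciprocal hybrids were smaller, −0.13 over Stag1 without overlap and −0.03 over Stag2 with overlap.

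**Figure D5:**
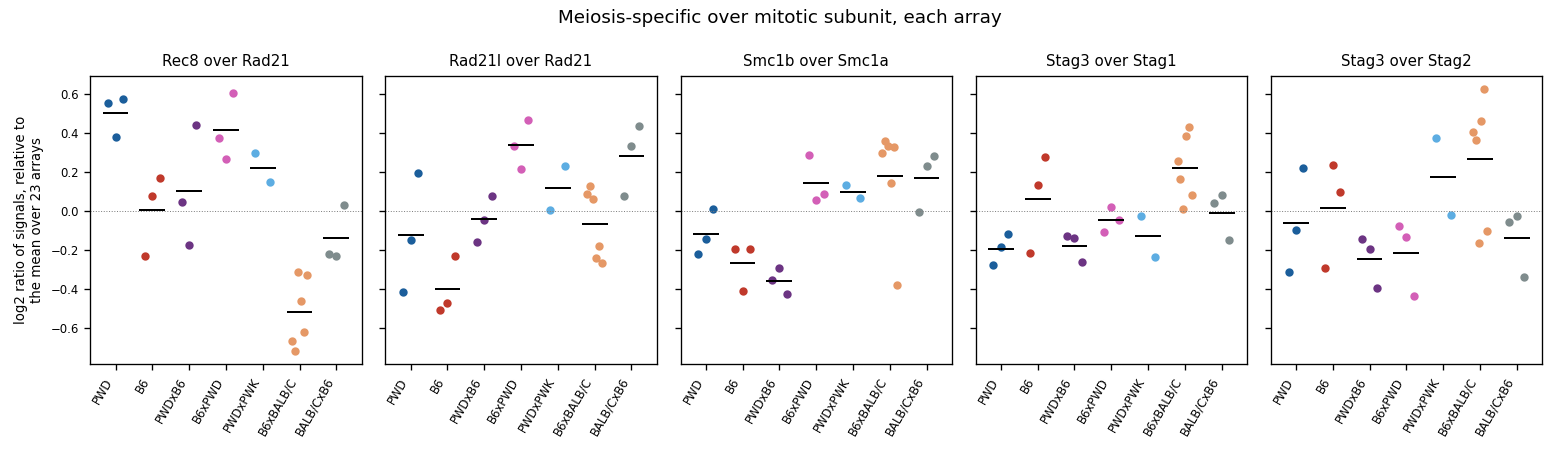
Log2 ratio of a meiosis-specific subunit over its mitotic counterpart on each of 23 arrays, relative to that ratio's mean over all arrays (dotted line at 0), with genotype means (black lines). Smc1b over Smc1a lies between −0.43 and −0.29 in PWDxB6 and between 0.05 and 0.29 in B6xPWD, and Rec8 over Rad21 is at −0.31 or lower on all 6 arrays of B6xBALB/C.

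Genes that load, release, protect or cleave cohesin were taken as a list of 24, all of them tested. In B6xPWD against the mid-parent value 3 of 24 rose and none fell, beside 14.5% of all genes called (7.79% higher), so that the count is near the background; the median difference was 0.16 beside −0.03 over all genes. The 3 were Pttg1, Hdac8 and Aurkb. Pttg1, the securin that restrains separase, exceeded the mid-parent value by 0.69 (SE 0.110, adjusted p = 0.000948). Hdac8, the X-linked deacetylase of Smc3, did so by 0.49 (SE 0.133, adjusted p = 0.0197). Aurkb, the kinase of the chromosomal passenger complex, did so by 0.34 (SE 0.0981, adjusted p = 0.0251). Against B6 alone, B6xPWD differed for Pttg1 by only 0.13 (SE 0.127, adjusted p = 0.507). Hdac8 and Aurkb passed against B6 too, at 0.58 (adjusted p = 0.0125) and 0.49 (adjusted p = 0.00587). Between the reciprocal hybrids 1 of 24 passed, beside 2.83% of all genes: Pttg1 was lower in PWDxB6 by 0.53 (SE 0.127, adjusted p = 0.0282), and the list's median was −0.16 beside 0.03 over all genes. None of the 24 passed in PWDxB6 against the mid-parent value or between the laboratory crosses. PWD against B6 gave 4 calls of 24, beside 18.4% of all genes. It gave 2 higher genes, Mau2, part of the cohesin loader, by 0.36 and Chtf18, part of a clamp loader that aids cohesion, by 0.38. The 2 lower ones were Pttg1, which fell by 1.12, and Sgo2a, the shugoshin that protects Rec8 at centromeres, which fell by 0.55 (adjusted p = 0.0219). In PWD against B6 the 10 pachytene markers had a median difference of −1.15, with 3 lower by the test, and in PWDxB6 against B6xPWD one of −0.70, with none called. Their part in the Pttg1 and Sgo2a differences was not tested. Across the 7 genotypes 7 of the 24 passed the F test, beside 33.8% of all genes.

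The genes of the related condensin and SMC5/6 complexes, with Smchd1, formed a list of 15, all tested. In B6xPWD against the mid-parent value 1 of 15 rose, beside 14.5% of all genes: Nsmce1, a subunit of the SMC5/6 complex, by 0.48 (SE 0.128, adjusted p = 0.0181). The median of the 15 was 0.21 beside −0.03 over all genes. Between the reciprocal hybrids none of the 15 passed, and their median was −0.21. PWD exceeded B6 for Smchd1, an SMC-like protein of the inactive X chromosome, by 0.59 (SE 0.142, adjusted p = 0.00563).

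Genes of the chromosome axes and of the synaptonemal complex, which assembles on them, formed a list of 10, and RNA signals were measured for 9 of these. In B6xPWD against the mid-parent value 4 of 9 rose, beside 14.5% of all genes (7.79% higher): Sycp3, a component of the axis, by 0.87 (SE 0.189, adjusted p = 0.00654), Tex12 and Syce2, of its central element, by 0.81 and 0.57, and Meioc, a regulator of meiotic prophase entered on this list, by 0.52. The germ cell markers, with a median difference of 0.40, and the lower Sertoli, peritubular and endothelial markers described for Rad21l belong to this comparison too, and their part in these rises was not tested. Meioc was also lower in PWDxB6 than in B6xPWD, by 0.59 (SE 0.152, adjusted p = 0.0384), and no other gene of the list passed there. Rad21l rose in the same comparison with the mid-parent value, and Rec8, Smc1b and Stag3 had differences of 0.03, 0.06 and 0.09 in it.

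The genes most like each meiosis-specific member over the 23 arrays were found by Pearson's r, which includes the differences between genotypes. For Rec8 they were Vps18 (0.914), Arhgef3 (0.900), Slc26a7 (0.887), Btbd3 (0.873) and Smad3 (0.867). For Rad21l they were Wdhd1 (0.827), Cpsf4 (0.815), Hat1 (0.815), Caprin2 (0.808) and Scp2 (0.805). This Rad21l list rests on the probe set used in the tests, which correlated with the other Rad21l probe set at only 0.488. For Smc1b they were Top2a (0.867), Pias2 (0.849), Mcm8 (0.844), Papolg (0.840) and Nsd2 (0.835), and for Stag3 they were Ints7 (0.945), Cep68 (0.873), Angel1 (0.863), Dhx30 (0.839) and Ncapd3 (0.833). Wdhd1 was also among the 5 genes nearest to Smc3 (0.848), and Papolg among those nearest to Stag1 (0.847).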

How the data were processed

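The authors deposited a table of log2 signals for 25690 probe sets of 23 arrays; how they corrected the background, summarized probes and normalized is not given in the sources used here. Array medians lay between 6.13 and 6.28, and precision rests on how many arrays a group has. The platform annotation named the probe sets: 20777 had 1 gene symbol, 232 several and 4681 none; 20696 matched RefSeq (GRCm38.p6) by Entrez ID. A gene's probe set was that with the highest mean, and the lowest 25% of gene means (log2 under 5.125) were not tested. limma 3.58.1 in R 4.3.3 fitted the 7 genotype means (16 residual degrees of freedom), with Benjamini-Hochberg adjustment over 14746 genes and a threshold of 0.05; the code was tested on simulated data. Named were all 9 members, up to 4 genes per other list and comparison with the smallest p past the threshold, and the 5 genes most like each meiosis-specific member. The members and lists were chosen with earlier results of these data known. Alternatives changed the filter, normalization, probe set choice, variance model, weights, samples and covariates.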

Additional observations from a re-analysis of the deposited data

How the results depend on the processing

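Over 2160 alternative values for the 9 members, no called difference changed sign. Of 5 called results, 1 kept its call under every alternative run (Rad21l across the 7 genotypes), and of 94 uncalled results 77 stayed uncalled. The number of members called was 0 between PWDxB6 and B6xPWD, 1 with quantile normalization, 2 with array weights (where 31.4% of all genes passed), and 0 to 1 with a replicate left out. For B6xPWD against the mid-parent value it was 1, then 2 with the lowest 50% of means left out, with quantile normalization or with array weights (20.6%, 13.4% and 40.5% of all genes), 0 with the other Rad21l probe set, and 1 to 2 with a replicate left out. For PWD against B6 it was 0, then 1 with the mean of probe sets, the replicate block, only the groups compared or the other Rad21l probe set (18.4% to 22.2% of all genes). For B6xPWD against B6 it was 1, then 2 with the stricter filter, quantile normalization, a variance trend, array weights or the pachytene covariate (17.3% to 28.9% of all genes), and 1 to 2 with a replicate left out. For B6xBALB/C against BALB/CxB6 it was 0, then 2 with array weights (11% of all genes), 1 with the replicate block (8.89%) or with B6xBALB/C replicates 1 to 3 (8.65%), and 0 to 1 with a replicate left out. For the reciprocal against the strain difference it was 0, then 1 with the stricter filter, quantile normalization, array weights, the replicate block or the pachytene covariate (9.79% to 22.5% of all genes), and 0 to 1 with a replicate left out. For the reciprocal hybrids against the reciprocal laboratory crosses it was 0 and 3 with array weights (28.6% of all genes). Across the 7 genotypes it was 3, then 6 with array weights (65.1% of all genes), 2 with no dim filter or with the replicate block, where Stag3 was lost, 1 without the B6xBALB/C genotype (26.8%), and 2 to 4 with a replicate left out. Beyond the settings that leave out samples or exchange a probe set, the cause was not tested. The other Rad21l probe set and the fit without B6xBALB/C were chosen after seeing the data.

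Replicate numbers were not treated as pairs in the main fit. Deviations of same-numbered arrays correlated at −0.223 to 0.335 over 57 pairs, 17 of them over 0.1, and 9 of 20 arrays correlated best with their own number. These values do not settle whether same-numbered arrays were handled together. With a replicate block 7.08% of all genes passed between the reciprocal hybrids, beside 2.83% in the main fit. The replicate block, fitted to replicates 1 to 3, gave Rec8 adjusted p-values of 0.0244 for PWD against B6, 0.00340 for the laboratory crosses and 0.0423 for the reciprocal against the strain difference. Groups of 2 to 6 arrays leave standard errors of 0.08 to 0.17 for comparisons of 2 genotypes, and a difference as large as 0.40 (Smc1a between the reciprocal hybrids) did not pass. Scaling moved the median difference of all genes by at most 0.037.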
